A study of Mus musculus with 12 samples.

Results

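The genes described here encode heat shock proteins and their DnaJ cochaperones. They were chosen by symbol: the HSP70, small heat shock protein and HSP90 families, the DnaJ genes of classes A, B and C, and Hspd1, Hspe1, Hsph1, Hsf2 and Hsbp1l1. By that rule 72 of the 18194 genes measured were members, read by 172 probe sets. Each gene was described by its brightest probe set (the highest mean of the 12 arrays), and 46 members had more than 1 to choose from. Of the 72, 64 had a mean at or above log2 6.22, the median of all values on the arrays, and 8 lay below it (Dnajb3, Dnajb7, Dnajb13, Dnajc5b, Dnajc5g, Dnajc6, Hsbp1l1 and Hspb9). Hsf1 and Hsp90ab1 are named by the rule but were not analysed here, and neither were 3 probe sets that name Dnajc19 together with its pseudogene.

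Heat shock proteins are molecular chaperones: they hold unfolded proteins in solution, help them fold, or pass them on for degradation. HSP70 proteins bind and release clients in a cycle driven by ATP. DnaJ proteins deliver the clients and start ATP hydrolysis, and nucleotide exchange factors such as Hsph1 and Hspa4 open the cycle again. Small heat shock proteins hold clients without ATP and are abundant in muscle, where they associate with the sarcomere. The endoplasmic reticulum (ER) and the mitochondrion each have chaperones of their own.

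Total RNA of the gastrocnemius (a muscle of the calf) was hybridised to Affymetrix mouse arrays, 3 for each of 4 groups. WT_young and KO_young came from wild-type and knock-out mice of 10 weeks, WT_old and KO_old from those of 24 months, all on a mixed C57Bl/6N/6J/129 background. The knock-out is a muscle-specific one of PGC-1alpha (gene symbol Ppargc1a), a coactivator of mitochondrial gene expression, made with a cre driven by the myogenin promoter. Myogenin is expressed in differentiating muscle cells, so other cells of the tissue are not its target. The labels do not say whether wild-type mice carried the cre or floxed alleles, and they name no treatment, sex or batch. Nor is it stated that each array is a different mouse, so the tests weigh differences only against the scatter of these arrays, part of which may be technical. Values are log2 signals, so a difference of 1 is 2-fold. A value after ± is limma's standard error unless SD is written. The genotype difference is knock-out minus wild-type and the age difference is old minus young. Where no single age or genotype is named, each is averaged over both levels of the other factor, 6 arrays against 6. A gene passed when its p, adjusted by the Benjamini-Hochberg method over all 18194 genes, lay under 0.05.

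Array medians ranged from 6.19 to 6.25, and correlations within a group from 0.988 to 0.997. KO_old 1 stood apart at 42.6 on the first principal component (37.8% of variance), where the other KO_old arrays lay at 19.3 and 15.7. WT_young 1 had a lymphocyte marker score of 0.83, where the other WT_young arrays had -0.41 and -0.41 (a score is the mean log2 distance from the WT_young mean). All 10 skeletal muscle markers were above 6.22, with scores between -0.04 and 0.02. Macrophage scores were 0.71 to 1.07 in KO_old and -0.23 to 0.71 in WT_old, and all 13 macrophage markers had a positive genotype difference, of which Cd68 and Cd163 passed. The signal of Ppargc1a itself was no lower in knock-out arrays. It read 10.77, 11.17 and 11.18 in WT_young, 11.14, 11.48 and 12.10 in KO_young, 12.09, 11.76 and 11.51 in WT_old and 12.06, 11.84 and 12.33 in KO_old (genotype difference 0.41 ± 0.16, adjusted p = 0.159). Which exons were deleted is not stated, so a probe set that may lie outside them checks nothing. In a whole muscle, fewer cells of a type and less RNA per cell cannot be told apart.

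More members differed with age than with genotype. With age 15 members rose and 5 fell, together 27.8% of the 72, where 16.2% of all genes passed (7.58% up and 8.65% down). The 15 include Hspa4, counted on the probe set used although its probe sets disagreed in direction. With genotype 2 rose and 6 fell, together 11.1%, where 4.22% of all genes passed (1.71% up and 2.51% down). Dnajc2 and Dnajc27 passed in both. Old and young arrays did not overlap in 10 members (13.9%), beside 8.37% of all genes. Knock-out and wild-type arrays did not overlap in 5 (6.94%), beside 2.87%. Where 3 arrays stood against 3, the share without overlap was 27.8% to 40.3% of members and 20.8% to 28.7% of all genes. Without WT_young 2, or without WT_old 3, 5 members passed with genotype. The members' median difference was 0.023 with age and 0.061 with genotype, beside -0.0002 and -0.013 over all genes. In all, 26 members passed in at least 1 comparison and 46 in none, on the probe set used. When every probe set was tested, 14 members had 1 or more past the threshold with genotype and 30 with age. Members with several probe sets have more chances to pass in that count.

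**Figure D1:**
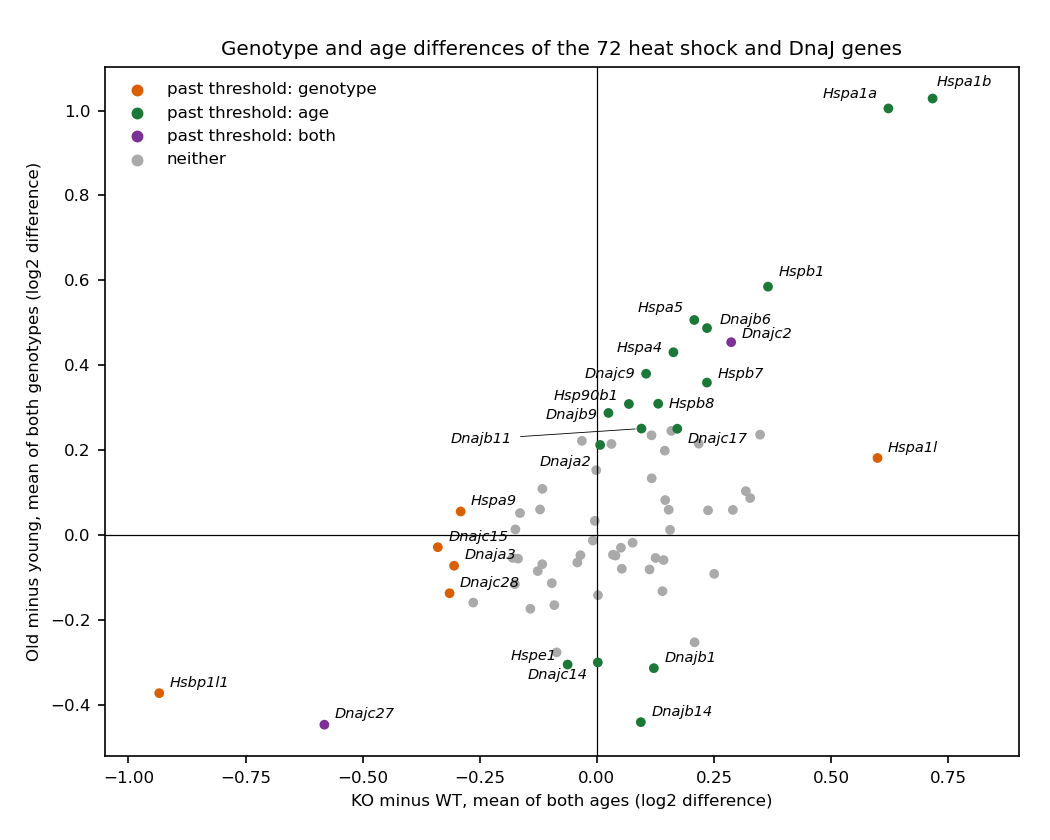
Log2 difference with genotype (x axis, knock-out minus wild-type, mean of both ages) against log2 difference with age (y axis, old minus young, mean of both genotypes) for the 72 members; a point is a gene, and colour shows where it passed an adjusted p of 0.05. Hspa1a and Hspa1b stand highest with age (1.005 and 1.03). Hspa1b lies furthest to the right (0.72, not past the threshold with genotype), Hspa1l lies at 0.60 and Hsbp1l1 far to the left (-0.93).

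Promoter sequence was available from RefSeq (GRCm38.p6, the C57BL/6J reference) for 58 of the 72 members and for 27025 genes in all, as 250 bases before and 50 bases from each start site. A heat shock element, the site bound by heat shock factors, is built of alternating GAA and TTC units. Both strands were searched for 3 units (GAANNTTCNNGAA or TTCNNGAANNTTC), for 2 units (GAANNTTC or TTCNNGAA, which also lie within every match of 3), and for the ER stress response element (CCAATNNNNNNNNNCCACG or its reverse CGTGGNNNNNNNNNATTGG, which holds a CCAAT box). The 3-unit element was in 4 members (6.9%; Dnajb6, Hspd1, Hspe1 and Hsph1), beside 0.662% of all genes. The 2-unit form was in 16 members (27.6%), beside 17% of all genes. The ER element was in 3 members (5.17%; Dnajc3, Hsp90b1 and Hspa5), beside 0.137% of all genes, while CCAAT alone was in 43.1% of members and 41.1% of all genes. A match is a description of these letters, not evidence of a site in use.

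The 5 windows printed next belong to genes that passed with age and to the main classes of promoter among them; capitals mark the motif, and each runs from base -250 to base -1 before the start site, read 5′ to 3′ on the gene's own strand. Hspa1a, an inducible HSP70 (chr17:34972157-34972406, minus strand, 2-unit heat shock element in capitals), and its neighbour Hspa1b (chr17:34959239-34959488, minus strand, not printed) differ at 3 of these 250 bases.
Hspa1a: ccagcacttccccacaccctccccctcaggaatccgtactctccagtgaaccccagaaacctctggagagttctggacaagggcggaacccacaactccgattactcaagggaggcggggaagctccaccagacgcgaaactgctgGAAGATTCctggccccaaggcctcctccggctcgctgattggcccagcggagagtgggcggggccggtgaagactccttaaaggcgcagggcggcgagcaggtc
Dnajb6 (chr5:29735729-29735978, plus strand, 1 of its annotated starts) and Hspe1 (chr1:55087898-55088147, plus strand) carry the 3-unit element, and Hspe1 and Hspd1 are read in opposite directions from overlapping first parts: the Hspe1 window lies within the annotated span of Hspd1.
Dnajb6: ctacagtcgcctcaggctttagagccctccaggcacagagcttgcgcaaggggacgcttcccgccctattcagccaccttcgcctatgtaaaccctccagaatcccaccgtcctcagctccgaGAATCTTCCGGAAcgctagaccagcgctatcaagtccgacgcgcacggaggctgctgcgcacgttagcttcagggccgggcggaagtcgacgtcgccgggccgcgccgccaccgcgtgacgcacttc
Hspe1: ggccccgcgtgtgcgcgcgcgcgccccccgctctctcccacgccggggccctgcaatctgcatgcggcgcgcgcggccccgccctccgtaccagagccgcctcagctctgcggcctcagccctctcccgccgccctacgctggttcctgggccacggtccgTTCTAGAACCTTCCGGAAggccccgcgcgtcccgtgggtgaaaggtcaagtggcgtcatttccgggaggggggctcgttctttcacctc
Hspa5 (chr2:34771840-34772089, plus strand) holds the ER element at 1 place and Hsp90b1 (chr10:86705445-86705694, minus strand) at 2.
Hspa5: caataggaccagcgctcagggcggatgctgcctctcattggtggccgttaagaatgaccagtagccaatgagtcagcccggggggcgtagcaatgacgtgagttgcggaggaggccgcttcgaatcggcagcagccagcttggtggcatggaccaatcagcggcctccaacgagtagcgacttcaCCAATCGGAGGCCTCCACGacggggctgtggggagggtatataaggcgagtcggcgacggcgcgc
Hsp90b1: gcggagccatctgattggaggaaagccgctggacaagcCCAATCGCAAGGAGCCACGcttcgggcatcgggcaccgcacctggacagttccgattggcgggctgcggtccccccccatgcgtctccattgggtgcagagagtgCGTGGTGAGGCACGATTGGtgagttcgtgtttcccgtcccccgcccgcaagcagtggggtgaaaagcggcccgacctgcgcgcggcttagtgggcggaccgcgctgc

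Among the 12 HSP70 and HSP110 genes other than Hspa5 and Hspa9, which are described with their organelles, 3 rose with age and none fell. These were Hspa1a, Hspa1b and, on the probe set used, Hspa4. With genotype 1 rose and none fell. Counts by group, here and below, stand beside the 16.2% of all genes that passed with age and the 4.22% with genotype. No group was tested as a set. The median age difference of these 12 was 0.10 and their median genotype difference 0.16. The inducible Hspa1a read 8.34, 7.40 and 7.90 in WT_young, 8.41, 8.74 and 8.82 in KO_young, 8.89, 9.57 and 8.66 in WT_old and 9.86, 9.36 and 9.30 in KO_old. The WT_young arrays were lowest and KO_old 1 was highest. Old arrays lay above young ones within each genotype, and WT_old overlapped both KO_young and KO_old. Its age difference was 1.005 ± 0.19, a 2.01-fold rise (adjusted p = 0.00328), and it was 1.16 ± 0.26 in wild-type (adjusted p = 0.0318) and 0.85 ± 0.26 in knock-out muscle (adjusted p = 0.0596). The call in wild-type muscle was lost without WT_young 2, WT_young 3, WT_old 1 or WT_old 2 (adjusted p from 0.0669 to 0.116). Hspa1b, the near-identical copy beside it, read 9.06, 7.999 and 8.59 in WT_young, 9.26, 9.57 and 9.23 in KO_young, 9.66, 10.35 and 8.99 in WT_old and 10.70, 10.14 and 10.04 in KO_old. Wild-type groups of Hspa1b overlapped between ages at 1 pair of arrays, WT_young 1 and WT_old 3. The Hspa1b age difference was 1.03 ± 0.23 (2.04-fold, adjusted p = 0.00904), and its other 2 probe sets gave 1.25 and 1.11. Because the 2 copies are so alike, signal can be shared between their probes and the genes are not independent readings. Neither passed with genotype: the differences were 0.62 ± 0.19 for Hspa1a (adjusted p = 0.0772) and 0.72 ± 0.23 for Hspa1b (adjusted p = 0.0952).

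Hspa1l, an HSP70 gene known for its expression in testis, lies beside Hspa1a on the same chromosome. Hspa1l passed with genotype and not with age, while Hspa1a and Hspa1b passed with age and not with genotype. The genotype differences of Hspa1a and Hspa1b were no smaller, with larger standard errors, and the difference between the genes was not tested. Hspa1l read 8.93, 8.81 and 8.90 in WT_young, 9.53, 9.61 and 9.35 in KO_young, 9.15, 9.15 and 8.94 in WT_old and 9.68, 9.53 and 9.78 in KO_old. Every knock-out array was above every wild-type array. The genotype difference was 0.60 ± 0.07 (1.51-fold, adjusted p = 0.00134), the smallest adjusted p of any member with genotype. It was 0.62 ± 0.10 in young (adjusted p = 0.0341) and 0.58 ± 0.10 in old muscle (adjusted p = 0.0179). The young call was lost without any 1 of the WT_young, KO_young or WT_old arrays (adjusted p from 0.0506 to 0.182), and the old call without WT_old 2 (adjusted p = 0.0583), WT_old 3 (adjusted p = 0.0978) or both KO_old 1 and WT_young 1 (adjusted p = 0.0512). The age difference of Hspa1l was 0.18 ± 0.07 (adjusted p = 0.106), and this gene had 1 probe set.

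Hspa8, the constitutive HSP70 of the cytosol, was level across all groups, between 14.21 and 14.39 on the 12 arrays, with an age difference of -0.05 ± 0.05 (adjusted p = 0.588) and a genotype difference of 0.04 ± 0.05 (adjusted p = 0.658). Hsph1, a nucleotide exchange factor induced by heat, had an age difference of -0.25 ± 0.10 (adjusted p = 0.124) and a genotype difference of 0.21 ± 0.10 (adjusted p = 0.247). For Hspa2 the genotype difference was 0.35 ± 0.10 (adjusted p = 0.0750). Hspa14, which works on the ribosome with Dnajc2, had an age difference of 0.21 ± 0.08 (adjusted p = 0.0743). The remaining HSP70 members (Hspa4l, Hspa12a, Hspa12b and Hspa13) had age differences between -0.28 and 0.01, and none passed.

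Hspa4, another exchange factor, rose with age on the probe set used, but its probe sets disagreed. That probe set read 11.16, 11.21 and 11.16 in WT_young, 11.27, 11.17 and 11.20 in KO_young, 11.41, 11.52 and 11.51 in WT_old and 12.07, 11.61 and 11.62 in KO_old. Old and young arrays did not overlap, and KO_old 1 was the highest. Its age difference was 0.43 ± 0.08 (adjusted p = 0.00336). Of the other 3 Hspa4 probe sets, 2 fell with age, by 1.64 (adjusted p = 5.62e-06) and by 0.58 (adjusted p = 0.0107), and the dimmest gave -0.11. Averaging the 4 reversed the gene's age difference to -0.48, so no direction is given for Hspa4. The probe sets were not mapped to transcripts here.

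**Figure D2:**
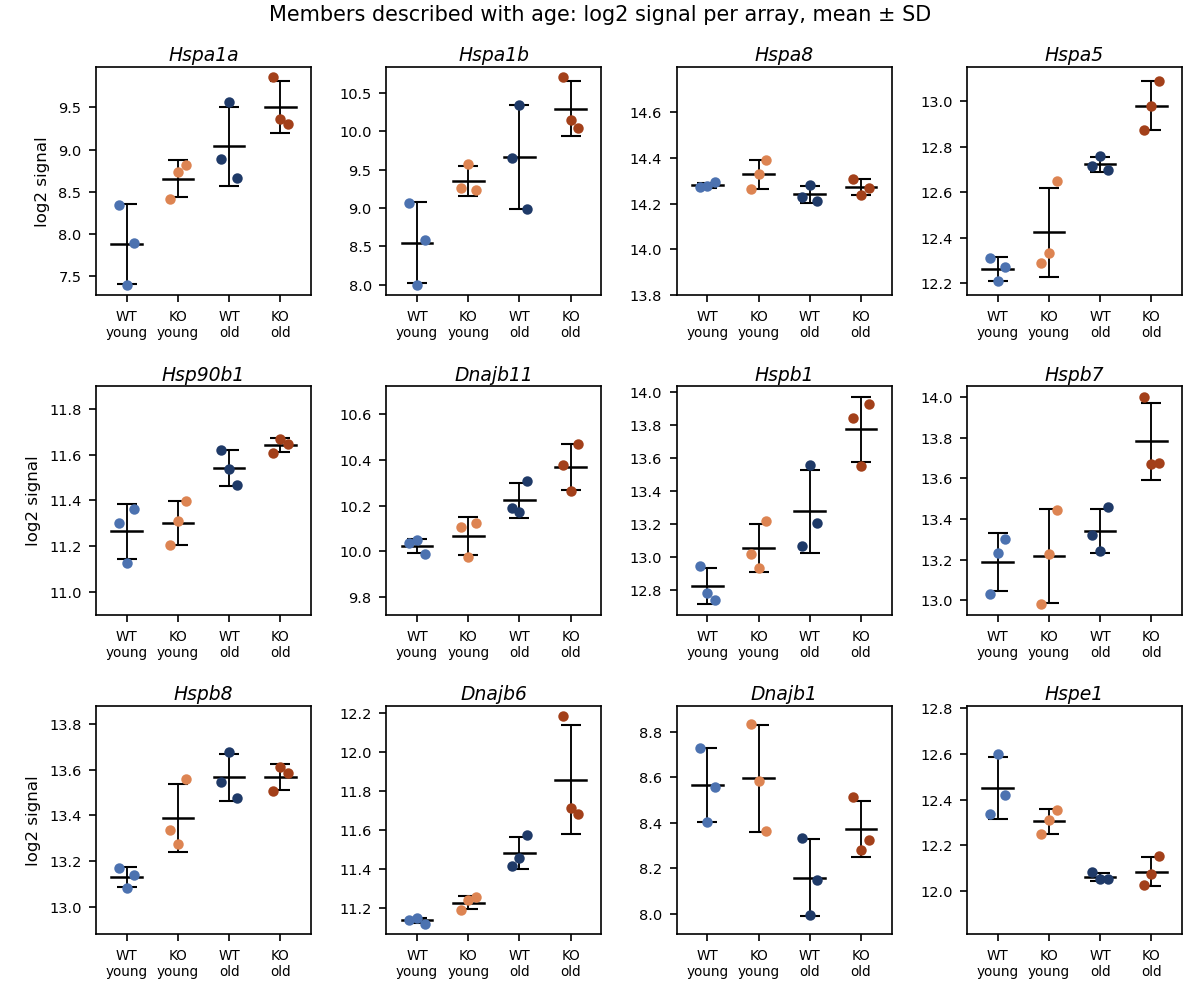
Log2 signal (y axis) on each of the 12 arrays for 12 members, by group on the x axis; points are arrays, the long bar is the group mean and the capped line 1 SD (n = 3). Old groups lie above young ones for most panels and below for Dnajb1 and Hspe1, while Hspa8 stays between 14.21 and 14.39.

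Of the HSP90 proteins of the cytosol, Hsp90aa1, the inducible form, read 11.58, 11.43 and 11.40 in WT_young, 11.51, 11.74 and 12.20 in KO_young, 11.81, 12.20 and 11.44 in WT_old and 11.80, 11.92 and 11.99 in KO_old. The groups overlapped, and its age difference of 0.22 ± 0.13 (adjusted p = 0.325) and genotype difference of 0.22 ± 0.13 (adjusted p = 0.338) did not pass.

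Small heat shock proteins rose with age in 3 of 8 members (Hspb1, Hspb7 and Hspb8), none fell, and none passed with genotype. Hspb1, which binds actin and desmin filaments under stress, read 12.95, 12.78 and 12.74 in WT_young, 13.02, 12.94 and 13.22 in KO_young, 13.07, 13.56 and 13.20 in WT_old and 13.84, 13.55 and 13.93 in KO_old. The KO_old arrays were all above those of both young groups. The age difference was 0.585 ± 0.10 (1.5001-fold, adjusted p = 0.00195), and its second probe set gave 0.53. In knock-out muscle alone it was 0.72 ± 0.14 (adjusted p = 0.00785) and in wild-type muscle 0.45 ± 0.14 (adjusted p = 0.105). With genotype Hspb1 was at 0.37 ± 0.10 (adjusted p = 0.0577).

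Hspb8, which acts with Bag3 and Hsp70 in the removal of damaged sarcomere proteins, read 13.17, 13.08 and 13.14 in WT_young, 13.33, 13.27 and 13.56 in KO_young, 13.54, 13.68 and 13.48 in WT_old and 13.51, 13.61 and 13.59 in KO_old. The WT_young arrays were lowest and the KO_young arrays lay between, reaching the old ones at KO_young 3. The age difference was 0.31 ± 0.07 (adjusted p = 0.00703). It was 0.44 ± 0.09 in wild-type muscle (adjusted p = 0.0241) and 0.18 ± 0.09 in knock-out muscle (adjusted p = 0.253), and the test of that difference did not pass (interaction -0.26 ± 0.13, adjusted p = 0.871). The call in wild-type muscle was lost without any 1 of the WT_young arrays, WT_old 1 or WT_old 2 (adjusted p from 0.0577 to 0.0983). Its other probe sets gave 1.002 and 0.12. Bag3 was at -0.09 ± 0.08 with age (adjusted p = 0.516).

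Hspb7, a small heat shock protein of heart and skeletal muscle, read 13.03, 13.23 and 13.30 in WT_young, 12.98, 13.23 and 13.45 in KO_young, 13.32, 13.24 and 13.46 in WT_old and 14.002, 13.67 and 13.68 in KO_old. All 3 KO_old arrays were above all the others, which overlapped. The age difference was 0.36 ± 0.09 (adjusted p = 0.0214), and 0.56 ± 0.13 in knock-out muscle (adjusted p = 0.0201) beside 0.15 ± 0.13 in wild-type muscle (adjusted p = 0.641); the interaction was 0.41 ± 0.19 (unadjusted p under 0.05, adjusted p = 0.871). The 2 dimmer probe sets gave age differences of 1.297 and 0.93. Without WT_old 3 the adjusted p of the averaged age difference was 0.0556, and without KO_old 1 and WT_young 1 together it was 0.0752. The call in knock-out muscle was lost without KO_young 1 (adjusted p = 0.0696), KO_young 2 (adjusted p = 0.0606) or KO_old 1 (adjusted p = 0.0656), and without KO_old 1 and WT_young 1 together (adjusted p = 0.0593).

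Hspb6, a partner of actin and troponin in muscle, had an age difference of 0.22 ± 0.08 (adjusted p = 0.0661), and Hspb2 one of 0.08 ± 0.08 (adjusted p = 0.552). Cryab, the lens and muscle crystallin of the same family that the symbol rule leaves out, rose with age by 0.32 ± 0.06 (adjusted p = 0.00575). Slow fibre markers moved with age beside these genes. All 9 had a positive age difference, 4 passed (Csrp3, Tnni1, Myl2 and Casq2), and scores were -0.13 to 0.22 in WT_young, 0.11 to 0.23 in KO_young, 0.00 to 0.52 in WT_old and 0.60 to 1.03 in KO_old. Their part in the rise of the small heat shock proteins was not tested.

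Of the 10 genes grouped here as ER chaperones and cochaperones, 4 rose with age (Hspa5, Hsp90b1, Dnajb9 and Dnajb11) and 1 fell (Dnajb14). None passed with genotype on the probe set used. Hspa5 (BiP), the HSP70 of the ER, read 12.31, 12.21 and 12.27 in WT_young, 12.29, 12.33 and 12.65 in KO_young, 12.71, 12.76 and 12.70 in WT_old and 12.87, 12.98 and 13.09 in KO_old. Every old array was above every young one, and every KO_old array was above every WT_old array. The latter 2 groups were likewise apart in 27.8% of members and 23.8% of all genes, and Hspa5 did not pass with genotype. The age difference was 0.51 ± 0.07 (1.42-fold, adjusted p = 0.000646), and it passed in wild-type muscle (0.46 ± 0.10, adjusted p = 0.0296) and in knock-out muscle (0.55 ± 0.10, adjusted p = 0.00582). Leaving out any 1 of the WT_young or WT_old arrays ended the call in wild-type muscle (adjusted p from 0.0649 to 0.104). A second Hspa5 probe set gave 0.47, while the third and dimmest gave 0.01 with age and fell by 0.36 with genotype (adjusted p = 0.0151), which the other 2 did not (0.21 and 0.06).

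Hsp90b1 (GRP94), the HSP90 of the ER, read 11.30, 11.13 and 11.36 in WT_young, 11.20, 11.31 and 11.40 in KO_young, 11.62, 11.54 and 11.47 in WT_old and 11.61, 11.67 and 11.65 in KO_old. Old and young arrays did not overlap. Its age difference was 0.31 ± 0.06 (adjusted p = 0.00555), and the second probe set gave 0.40. Dnajb11, a DnaJ cochaperone of Hspa5 in the ER lumen, rose by 0.25 ± 0.06 (adjusted p = 0.0124), from 9.97 to 10.12 on the 6 young arrays to 10.17 to 10.47 on the 6 old ones. Dnajb9, another lumenal DnaJ protein, rose by 0.29 ± 0.08 (adjusted p = 0.0334), but leaving out any array other than WT_young 3, KO_young 1 and KO_old 2 moved its adjusted p to between 0.0564 and 0.0837. Dnajb14, an ER membrane DnaJ protein, fell by 0.44 ± 0.11 (adjusted p = 0.0133), and its second probe set by 0.40. Dnajb12 was level on the probe set used, at -0.02 with age and 0.08 with genotype. Its second probe set was nearly as bright (mean 8.55 against 8.72) and rose with both when tested on its own. The differences there were 0.33 with age (adjusted p = 0.0204) and 0.36 with genotype (adjusted p = 0.0386). Dnajc3 (p58IPK), whose promoter also holds the ER element, had an age difference of 0.06 ± 0.09 (adjusted p = 0.740) and a genotype difference of 0.29 ± 0.09 (adjusted p = 0.0982).

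Among 20 further ER stress genes that the symbol rule leaves out, 9 rose and 1 fell with age, with a median difference of 0.26. The largest was Sdf2l1, a cofactor of Hspa5, at 0.72 ± 0.09 (adjusted p = 0.000363). Manf, a secreted ER stress protein, was at 0.60 ± 0.08 (adjusted p = 0.000581). The disulphide isomerases Pdia6 and P4hb were at 0.55 ± 0.07 (adjusted p = 0.000422) and 0.54 ± 0.05 (adjusted p = 5.05e-05), and P4hb alone of the 20 also rose with genotype (0.22 ± 0.05, adjusted p = 0.0310). The others that rose were Calr, Canx, Creld2, Pdia3 and Xbp1, and Atf4, a transcription factor of the stress response, fell by 0.32 ± 0.07 (adjusted p = 0.00838).

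Several measures of the RNA moved with age beside these results. The 18S control probes averaged 13.8 and 13.7 in WT_young and KO_young and 12.1 and 12.4 in WT_old and KO_old. The 5′ minus 3′ signal of Gapdh averaged -0.19 and -0.17 in young and -0.03 and -0.02 in old muscle. That of Actb averaged -0.29 in WT_young, -0.20 in KO_young, -0.13 in WT_old and -0.01 in KO_old. The mean Actb measure was thus higher in knock-out than in wild-type groups at both ages, besides rising with age. Young arrays overlapped between genotypes (KO_young 3 at -0.26, WT_young 1 at -0.23). Fibroblast markers had a negative age difference in 7 of 7 and fell in 4 (Col1a1, Col1a2, Dcn and Thy1), with scores of -0.22 to 0.41 in WT_young, -0.07 to 0.87 in KO_young, -1.46 to -0.87 in WT_old and -2.31 to -0.60 in KO_old. Serpinh1, the collagen chaperone of the ER, fell with age by 0.79 ± 0.21 (adjusted p = 0.0229). Endothelial markers had a positive age difference in 1 of 9, and Cdh5 and Tie1 fell past the threshold. Satellite cell markers had a positive one in 1 of 6. Of these, Pax7 and Myf5 fell and Myog rose past the threshold. Among markers of other cells, Ighm (lymphocyte), Alas2 (erythroid), Plin4 (adipocyte) and Cd68 (macrophage) rose past it with age. The part of these measures in the age and genotype differences was not tested.

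Of the 4 genes grouped here as mitochondrial chaperones (Hspa9, Dnaja3, Hspd1 and Hspe1), 2 fell with genotype (Hspa9 and Dnaja3) and none rose. The genotype differences of all 4 were negative, with a median of -0.21. Markers of other cell and fibre types moved with genotype beside them and beside the other genotype calls. Slow fibre markers had a positive genotype difference in 8 of 9 (median 0.39, none past the threshold), and endothelial markers a negative one in 9 of 9 (median -0.22), of which Flt1 passed. Endothelial scores were -0.07 to 0.13 in WT_young, -0.43 to 0.002 in KO_young, -0.33 to -0.30 in WT_old and -0.60 to -0.36 in KO_old. Satellite cell markers had a positive genotype difference in 6 of 6 (median 0.26), of which Myf5 passed. Schwann cell and nerve markers had a positive one in 0 of 6 (median -0.22), with none past the threshold. Lymphocyte markers had a positive one in 1 of 11 (median -0.23) and adipocyte markers in 7 of 9 (median 0.12), again with none past it. Adipocyte scores were -0.67 to 1.16 in KO_old, with KO_old 1 the highest, and -0.72 to -0.22 in WT_old. The part of these markers and of the macrophage markers in the genotype differences was not tested. Hspa9 (mortalin), the HSP70 that pulls proteins into the mitochondrial matrix, read 12.65, 12.76 and 12.79 in WT_young, 12.42, 12.39 and 12.38 in KO_young, 12.67, 12.73 and 12.82 in WT_old and 12.63, 12.37 and 12.48 in KO_old. All knock-out arrays were below all wild-type arrays, with KO_old 1 closest to them. The genotype difference was -0.29 ± 0.06 (knock-out at 81.7% of wild-type, adjusted p = 0.0238). Other Hspa9 probe sets gave -0.33, -0.46, -0.09 and -0.07, the last 2 from probe sets with means of 6.52 and 5.93. Its call was lost when any of WT_young 2, WT_young 3, KO_young 2, KO_young 3, WT_old 2, WT_old 3 or KO_old 2 was left out alone (adjusted p from 0.0503 to 0.0681), while without KO_old 1 and WT_young 1 together it was -0.35 (adjusted p = 0.00994).

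Dnaja3 (Tid1), the matrix DnaJ partner of Hspa9, read 11.37, 11.50 and 11.51 in WT_young, 11.10, 11.23 and 11.20 in KO_young, 11.35, 11.43 and 11.44 in WT_old and 10.96, 11.10 and 11.18 in KO_old. The genotypes did not overlap. The genotype difference was -0.30 ± 0.06 (adjusted p = 0.0181), and -0.25 on a second probe set. It lost its call without WT_young 2 (adjusted p = 0.0523), WT_young 3 (adjusted p = 0.0549) or WT_old 3 (adjusted p = 0.0533). The chaperonin Hspd1 (Hsp60), which folds imported proteins in a barrel, had a genotype difference of -0.13 ± 0.07 (adjusted p = 0.269), and its lid Hspe1 (Hsp10) one of -0.06 ± 0.06 (adjusted p = 0.543).

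Hspe1 and Hspd1 share a promoter region; Hspe1 fell with age and Hspd1 did not pass. Hspe1 read 12.34, 12.60 and 12.42 in WT_young, 12.25, 12.31 and 12.35 in KO_young, 12.08, 12.05 and 12.05 in WT_old and 12.03, 12.07 and 12.15 in KO_old. All old arrays were below all young arrays, and the 6 old arrays spanned only 12.03 to 12.15. The age difference of Hspe1 was -0.31 ± 0.06 (adjusted p = 0.00461), and -0.24 on its second probe set. Hspd1 was at -0.09 ± 0.07 with age (adjusted p = 0.448); the difference between these 2 genes was not tested.

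Of 17 further genes of mitochondrial protein quality control, 4 fell with genotype and none rose, and the median difference was -0.14. Timm44, which anchors Hspa9 at the import channel, fell by 0.33 ± 0.06 (adjusted p = 0.0136). Trap1, the mitochondrial HSP90, fell by 0.23 ± 0.05 (adjusted p = 0.0370), and the proteases Oma1 and Afg3l2 fell by 0.22 ± 0.05 (adjusted p = 0.0376) and 0.23 ± 0.06 (adjusted p = 0.0462). With age Trap1 rose by 0.42 ± 0.05 (adjusted p = 0.000422) and Timm44 fell by 0.39 ± 0.06 (adjusted p = 0.00128). Grpel1, the exchange factor of Hspa9, and Hscb also rose with age.

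**Figure D3:**
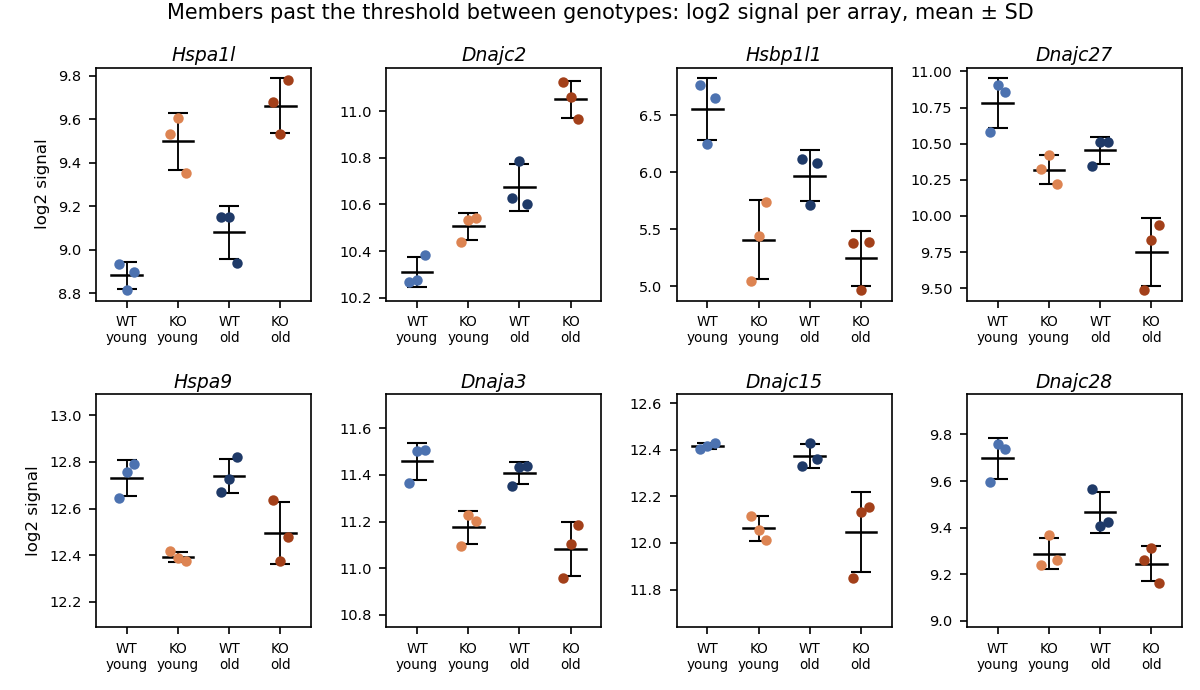
Log2 signal (y axis) on each array for the 8 members that passed with genotype, by group on the x axis; points are arrays, the long bar is the group mean and the capped line 1 SD (n = 3). Knock-out arrays lie above wild-type arrays of the same age for Hspa1l and Dnajc2 and below them for Hsbp1l1, Dnajc27, Hspa9, Dnaja3, Dnajc15 and Dnajc28.

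Dnajc15 and Dnajc27, of class C, fell with genotype. Dnajc15, a DnaJ protein of the mitochondrial inner membrane, read 12.40, 12.42 and 12.43 in WT_young, 12.12, 12.06 and 12.01 in KO_young, 12.33, 12.43 and 12.36 in WT_old and 11.85, 12.13 and 12.16 in KO_old. The genotypes did not overlap, and its difference was -0.34 ± 0.06 (adjusted p = 0.0141). Dnajc27 (RBJ), a Ras-like GTPase with a J domain, read 10.58, 10.90 and 10.86 in WT_young, 10.32, 10.42 and 10.22 in KO_young, 10.35, 10.51 and 10.51 in WT_old and 9.49, 9.83 and 9.94 in KO_old. KO_old was lowest without overlap, and KO_young overlapped WT_old. Its genotype difference was -0.58 ± 0.09 (adjusted p = 0.00482) and -0.70 ± 0.13 in old muscle alone (adjusted p = 0.0226), the latter not past without WT_old 2, WT_old 3 or KO_old 2 (adjusted p from 0.0526 to 0.11). With age it fell by 0.45 ± 0.09 (adjusted p = 0.00504), but its second, dimmer probe set gave 0.10 with age and -0.24 with genotype. With the mean of both probe sets the age difference was -0.18 (adjusted p = 0.159).

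Dnajc28 read 9.60, 9.76 and 9.74 in WT_young, 9.24, 9.37 and 9.26 in KO_young, 9.57, 9.41 and 9.42 in WT_old and 9.26, 9.31 and 9.16 in KO_old. The genotypes did not overlap. Its genotype difference was -0.31 ± 0.06 (adjusted p = 0.0149), and -0.10 on a second, dimmer probe set. Dnajc2, the ribosome-bound partner of Hspa14, rose with both factors. It read 10.27, 10.28 and 10.38 in WT_young, 10.44, 10.54 and 10.54 in KO_young, 10.63, 10.79 and 10.60 in WT_old and 11.12, 11.06 and 10.97 in KO_old, so the 4 groups stood in that order without overlap. The age difference was 0.45 ± 0.06 (adjusted p = 0.000411), the smallest adjusted p of any member with age, and its second bright probe set gave 0.34. The mean of its 4 probe sets, of which 2 had means under 6.22, gave 0.19 (adjusted p = 0.0386). That mean ended the age calls in wild-type muscle (0.12, adjusted p = 0.525) and in knock-out muscle (0.26, adjusted p = 0.0586). The genotype difference was 0.29 ± 0.06 (adjusted p = 0.0217), and 0.16 on the second probe set. That call was lost without WT_young 2 (adjusted p = 0.0591), KO_young 2 (adjusted p = 0.0639), KO_young 3 (adjusted p = 0.0519) or WT_old 3 (adjusted p = 0.0645), and the mean of the 4 probe sets gave 0.16 (adjusted p = 0.116).

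Over all 23 class C genes, 3 rose and 2 fell with age and 1 rose and 3 fell with genotype, with medians of -0.03 and 0.00. Dnajc9, a histone chaperone, rose with age by 0.38 ± 0.08 (adjusted p = 0.00912), from 9.39 to 9.69 on young arrays to 9.73 to 10.25 on old ones. Dnajc17, a nuclear DnaJ protein, rose by 0.25 ± 0.07 (adjusted p = 0.0333) and Dnajc14, an ER membrane protein counted here with class C and not among the 10 ER genes, fell by 0.30 ± 0.08 (adjusted p = 0.0265), with all 3 Dnajc14 probe sets lower. Leaving out WT_young 3 ended the Dnajc14 call (adjusted p = 0.0588), as did KO_young 2, WT_old 2, WT_old 3 or KO_old 3 (adjusted p from 0.0508 to 0.0695). The 2 dimmer probe sets of Dnajc17 gave -0.09 and -0.05, and leaving out any of 8 arrays (WT_young 1, 2 or 3, KO_young 2 or 3, WT_old 1, 2 or 3) raised its adjusted p to between 0.0547 and 0.0837. Among those with no call, Dnajc5, Dnajc8 and Dnajc21 had age differences of -0.05, -0.01 and -0.03.

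In classes A and B, 2 of 12 members rose and 1 fell with age, and none passed with genotype on the probe set used. Dnajb6, which keeps aggregation-prone proteins soluble and sits at the Z disc of muscle, read 11.14, 11.15 and 11.12 in WT_young, 11.19, 11.24 and 11.26 in KO_young, 11.41, 11.46 and 11.57 in WT_old and 12.18, 11.71 and 11.68 in KO_old. The groups stood in this order without overlap, with KO_old 1 the highest. The age difference was 0.49 ± 0.08 (1.40-fold, adjusted p = 0.00220), and 0.41 without KO_old 1 and WT_young 1 (adjusted p = 0.00148). All 4 Dnajb6 probe sets rose with age, the others by 1.13, 0.66 and 0.46. Its genotype difference was 0.24 ± 0.08 (adjusted p = 0.124).

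Dnajb1 (Hsp40), the inducible DnaJ partner of Hspa1a, fell with age. It read 8.73, 8.41 and 8.56 in WT_young, 8.83, 8.58 and 8.37 in KO_young, 8.33, 7.997 and 8.15 in WT_old and 8.51, 8.28 and 8.32 in KO_old. The age groups overlapped among knock-out arrays, and the age difference was -0.31 ± 0.10 (adjusted p = 0.0415). A second, dimmer Dnajb1 probe set gave 0.16, and leaving out any of 8 arrays ended the call (adjusted p from 0.0722 to 0.0986), all but WT_young 2, KO_young 3, WT_old 1 and KO_old 1, as did centring the arrays (adjusted p = 0.0514) or a second quantile normalization (adjusted p = 0.0565). Dnaja2, a cytosolic class A protein, rose by 0.21 ± 0.06 (adjusted p = 0.0333), but its probe sets ran from -0.21 to 0.51 and leaving out any array other than KO_young 1, KO_old 2 and KO_old 3 ended the call (adjusted p from 0.0504 to 0.0825), as did a second quantile normalization (adjusted p = 0.0691). Dnaja1 had an age difference of -0.09 ± 0.14 (adjusted p = 0.732), Dnajb4 one of 0.25 ± 0.08 (adjusted p = 0.0571) and Dnaja4 one of 0.23 ± 0.08 (adjusted p = 0.0595). A second Dnajb4 probe set rose with age by 0.35 (adjusted p = 0.0423) when tested on its own, and the dimmest gave 0.02. The other 2 Dnaja4 probe sets rose with age, by 0.58 (adjusted p = 0.00109) and 0.71 (adjusted p = 0.000102), when each probe set was tested on its own. The latter probe set also rose with genotype, by 0.41 (adjusted p = 0.0165).

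**Figure D4:**
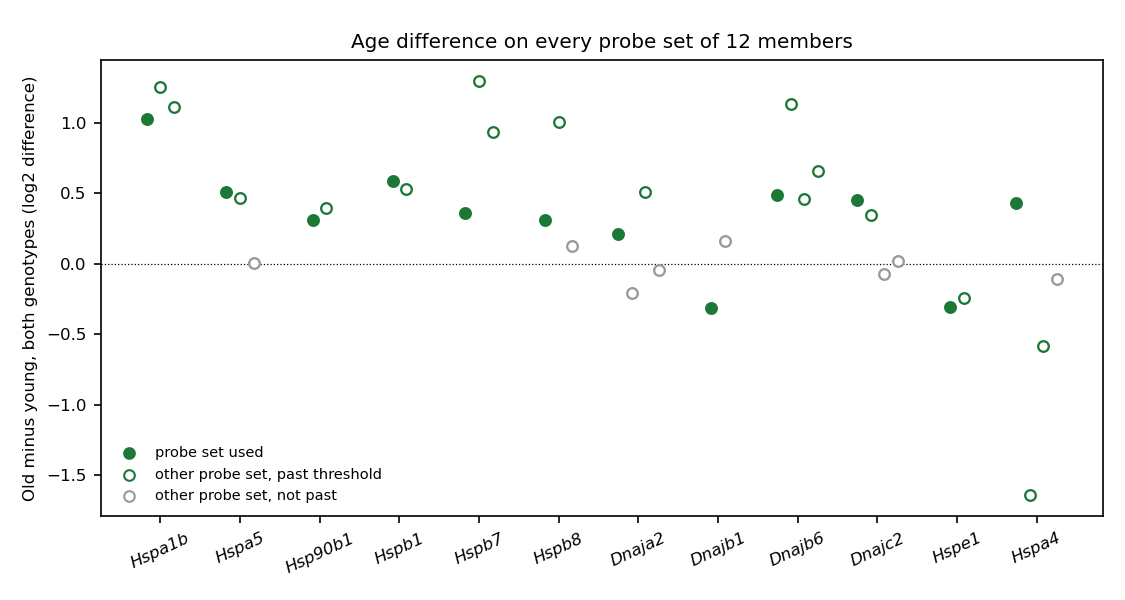
Age difference (y axis, old minus young, log2, mean of both genotypes) on every probe set of 12 members; filled points are the probe sets used, open points the others, green where the adjusted p over all probe sets was under 0.05. All probe sets of Hspa1b, Hspb1, Hspb7, Hspb8 and Dnajb6 lie above 0, and those of Hspa4 run from 0.43 to -1.64.

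Hsbp1l1, a relative of the heat shock factor binding protein, had the largest genotype difference among the members. It read 6.77, 6.25 and 6.65 in WT_young, 5.04, 5.44 and 5.73 in KO_young, 6.11, 5.71 and 6.08 in WT_old and 5.38, 4.97 and 5.39 in KO_old. Within each age the knock-out arrays were lower (WT_old 2 at 5.71 against at most 5.39 in KO_old), but KO_young 3 overlapped WT_old. The genotype difference was -0.93 ± 0.14 (adjusted p = 0.00396) and -1.15 ± 0.19 in young muscle (adjusted p = 0.0390). All knock-out arrays and all WT_old arrays lay under 6.22, the median of all values. By the estimate, the signal in young knock-out muscle was 2.21-fold lower. Over the alternative runs its log2 difference in young muscle lay between -1.31 and -0.97. At such low signal the size is uncertain. Hsf2, a heat shock transcription factor, had a genotype difference of 0.33 ± 0.10 (adjusted p = 0.0942) and an age difference of 0.09 ± 0.10 (adjusted p = 0.646).

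**Figure D5:**
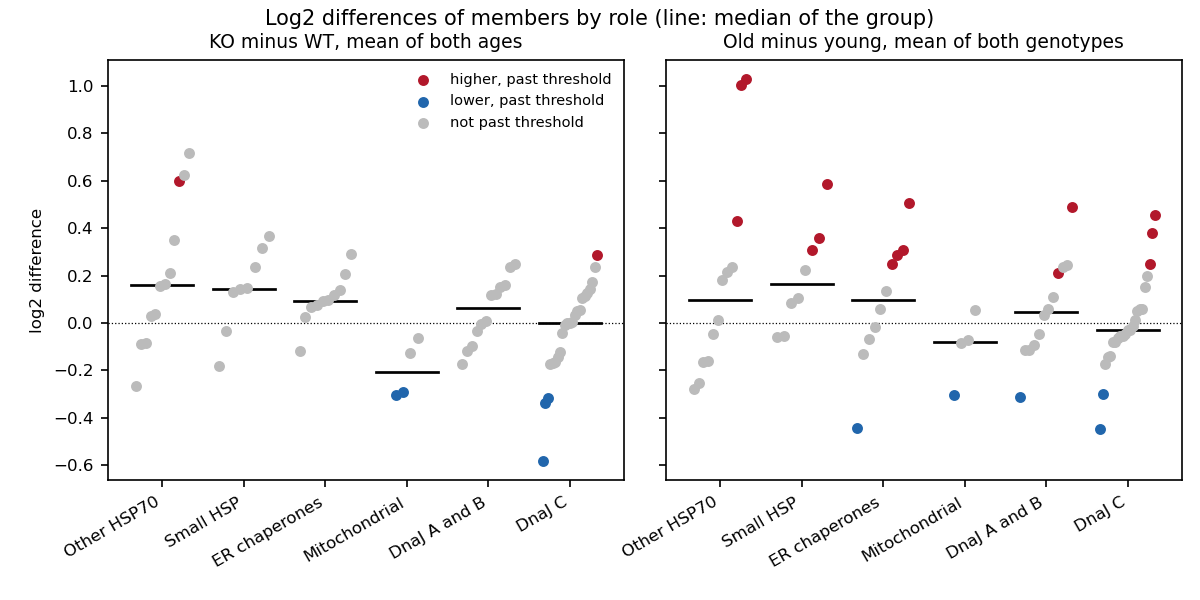
Log2 difference of each member (points) by role on the x axis, with genotype at left and age at right; the bar is the median of the group and colour marks members past an adjusted p of 0.05. The group "Other HSP70" leaves out Hspa5 and Hspa9, and "Mitochondrial" holds Hspa9, Dnaja3, Hspd1 and Hspe1 (Dnajc15 is in class C); those 4 lie under 0 with genotype, and with age Hspa1a and Hspa1b stand highest (1.005 and 1.03).

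The single comparisons gave fewer calls, since each rests on 3 arrays against 3. With age in wild-type muscle 4 members rose (Hspa1a, Hspa5, Hspb8 and Dnajc2) and 1 fell (Hspe1), where 3.62% of all genes passed (1.65% up and 1.97% down). Without WT_young 2, WT_young 3, WT_old 1 or WT_old 2 none of the 5 passed. Counted over all members, 2 passed without WT_young 1, 3 without WT_old 3 and 8 without KO_old 1. Of the 5, only Hspa1a and Hspb8 still passed without WT_old 3. With age in knock-out muscle 9 rose (Dnajc2, Hspa5, Dnajb6, Hspb1, Hspa4, Hspb7, Hsp90b1, Dnajc17 and Dnajb11) and 2 fell (Dnajc27 and Dnajb14), where 10.3% of all genes passed (4.85% up and 5.41% down). Hspa4 is counted on the probe set used, as its probe sets disagreed in direction. The calls of Dnajb11, Hsp90b1 and Dnajc17 in knock-out muscle held in 10, 13 and 15 of 22 alternatives. Without KO_young 2 there were 5 members past the threshold in knock-out muscle and without KO_young 3 there were 7. These 2 comparisons share no array.

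With genotype in young muscle 1 member rose (Hspa1l) and 1 fell (Hsbp1l1), where 0.192% of all genes passed. With genotype in old muscle Hspa1l rose and Dnajc27 fell, where 1.32% of all genes passed. No member passed in young muscle without any 1 of the 3 WT_young, 3 KO_young or 3 WT_old arrays, and 5 passed without KO_old 1; in old muscle none passed without WT_old 2 or WT_old 3 and 1 without KO_old 2. The interaction, which asks whether the genotype difference changed with age, gave 0 members and 0.00% of all genes by limma. At an unadjusted p under 0.05 it gave 2 members, Hspb7 and Dnajc6, and 992 genes in all. The interaction of Dnajc6, a clathrin uncoating cochaperone, was 0.53 ± 0.15 (adjusted p = 0.871), but all its arrays read between 4.97 and 5.59, under 6.22. The genotype difference in young muscle and the age difference in wild-type muscle share the WT_young arrays, so they are not independent.

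The counts for other chaperone systems stand beside the 16.2% of all genes that passed with age and the 4.22% that passed with genotype. Of 13 genes of the CCT chaperonin and prefoldin, which fold actin and tubulin, 1 rose with genotype (Pfdn2, 0.24 ± 0.05, adjusted p = 0.0238), and with age 1 rose (Tcp1, 0.25 ± 0.05, adjusted p = 0.00940) and 1 fell (Pfdn4, by 0.44 ± 0.09, adjusted p = 0.00518). The CCT and prefoldin genes had a median genotype difference of 0.14. Of 26 further cochaperones and heat shock factor targets, 3 rose with age (Cryab, the HSP90 cochaperone Cdc37 and Sugt1) and 3 fell (Serpinh1, Rangrf and Cyb5r4), and Rangrf alone passed with genotype, falling by 0.50 ± 0.07 (adjusted p = 0.00368).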

How the data were processed

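The deposited values are log2 signals. Per the submitters' processing notes the authors used RMA and affy, with no version given, and the values were taken as deposited. Each array held 45101 probe sets. Probe sets were named through GEO's platform annotation and 34958 named 1 gene; those naming several or none were left out. Group means of the 4 groups were fitted to 12 arrays with limma 3.58.1 (R 4.3.3; 8 residual and 4.15 prior degrees of freedom), with Benjamini-Hochberg adjustment over 18194 genes and a threshold of 0.05. The procedure was tested on simulated data. Precision is limited by 3 arrays per group. Replicate numbers follow accession order and pair nothing. RefSeq tables (GRCm38.p6) gave promoters. The members, lists and tests were chosen with earlier results of these data known. Named were members past the threshold, the 5 smallest p per comparison, a set of core chaperones and members with contradicting probe sets. Alternatives were other probe set rules, filters, normalizations, variances, weights and thresholds, fitting only the groups compared, and omission of single arrays. Omission of both KO_old 1 and WT_young 1 was an alternative chosen after seeing the data.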

Additional observations from a re-analysis of the deposited data

How the results depend on the processing

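Of 48 gene results past the threshold, 19 stayed past it in every alternative run that applied to them. Hspa4 (age averaged) did so with its sign reversed under the mean of probe sets. Of the calls in single comparisons, only Hspb1 with age in knock-out muscle held throughout, and the rest of the 19 were averaged over a factor. The averaged comparisons had no run with only the groups compared, and Hsbp1l1 had none among brighter genes. No paired analysis was possible because replicate numbers pair no arrays. Averaging a gene's probe sets reversed Hspa4 (-0.43 with age in knock-out muscle, -0.48 averaged) and the Dnajc3 interaction (-0.10). Counts of members past the threshold moved as follows. For genotype in young muscle (2) they were 1 among brighter genes, 11 with array weights, 0 with only the groups compared and 0 to 5 with 1 array left out. For genotype in old muscle (2) they were 0 with only the groups compared, 8 at an adjusted p of 0.10, 1 without both arrays that stand apart and 0 to 3 with 1 array left out. For age in wild-type muscle (5) they were 8 with the mean of probe sets, 18 with array weights, 3 with only the groups compared and 0 to 8 with 1 array left out. For age in knock-out muscle (11) they were 4 with only the groups compared, 18 at 0.10, 7 without both arrays and 5 to 11 with 1 left out. For genotype averaged (8) they were 14 at 0.10 and 5 to 10 with 1 left out, and for age averaged (20) 15 to 22 with 1 left out. Members' medians moved too. Among brighter genes they were 0.050 (age, wild-type muscle), 0.094 for genotype averaged and 0.057 for age averaged. Centring arrays on the median gave 0.093 for genotype in old muscle and 0.087 averaged, and quantile normalization again gave 0.013 and 0.031 for genotype in young and old muscle, 0.015 for age in knock-out muscle and 0.033 for genotype averaged. Array weights gave -0.0082 (age, wild-type muscle) and 0.014 (interaction); the interaction median was 0.0069 without both arrays. With 1 array left out the medians ranged from 0.032 to 0.061 for genotype in old muscle, 0.007 to 0.042 for age in wild-type muscle, 0.015 to 0.039 for age in knock-out muscle, 0.038 to 0.074 for genotype averaged and -0.026 to 0.033 for the interaction. The cause of these moves was not tested. An adjusted p of 0.10, fewer arrays and fewer genes tested change a count by their construction. The signal over background limits Hsbp1l1, Dnajc6 and the other 6 members under log2 6.22.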
